A study of Gallus gallus with 8 samples.

Results

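The genes described here are the nuclear genes for proteins of the mitochondrial ribosome, in the liver of broiler chickens labelled male. They were chosen by name, as the rows whose symbol starts with MRPL or MRPS followed by a digit and whose higher group mean was above 0. All 70 rows with such a symbol met that limit, among 20170 genes with a result in a table of 23613 rows. There were 43 MRPL and 27 MRPS genes. The lowest higher group mean among them was 4.75, for MRPL53, so the limit at 0 left out no row of this name.

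The study compared crowded with less crowded birds by RNA sequencing of liver. The high density group (D in the labels) was kept at a planned end density of 39.1 kg/m2 (8 lb/ft2), and the low density group (A) at 24.4 kg/m2 (5 lb/ft2). Livers of both groups were sampled on day 46, and no other treatment, strain or genotype is given in the labels. Each group had 4 libraries and each library held pooled RNA of 4 birds, so a group stands for 16 birds. The file used is the authors' deposited table of 1 comparison, high over low density, in which a log2 fold change, called log2 ratio below, is positive where a gene was higher at high density. It gives the higher of the 2 group means, a fold change and p-values per gene and no value per library, which leaves unknown here how the pools of a group spread and how deeply each was sequenced, and no value per pool can be shown.

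Mitochondria translate the few proteins of their own genome on a ribosome whose RNA is mitochondrially encoded and whose proteins are nuclear encoded, made in the cytosol and imported. Part of these proteins have counterparts in bacterial ribosomes, and part were added in mitochondria. The products of this ribosome are core subunits of the respiratory chain and of ATP synthase, which liver cells rely on for oxidative metabolism. The roles and places named here are those known from mammalian ribosomes.

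The liver label was checked on 15 hepatocyte markers, all of which had a value. ALB, serum albumin, had a higher group mean of 36025 and APOA1 of 12425 in the authors' deposited table, and CPS1, of the mammalian urea cycle, had the lowest of the list, 0.815. The scale of these means is not named in the table. Not given in the sources used here is whether they are per length, so an order of these means is an order of deposited values, not of expression levels between genes. Of the hepatocyte markers, 6 were lower and 9 higher at high density (median log2 ratio 0.02, 0 called), and FGG (0.17) and FGA (0.16), fibrinogen chains, had the smallest p-values of the list in the authors' deposited table.

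No mitochondrial ribosomal protein gene passed the authors' test at an adjusted p under 0.05, where 0.273% of all genes with a result did. Most members had small negative values: 54 of 70 (77.1%) had a log2 ratio below 0 and 16 above, beside 49.7% below 0 among all genes with a result and 52.2% among those with a group mean of at least 1. The median over members was -0.09, with quartiles of -0.16 and -0.01. Over all genes with a result the median was 0.001, with quartiles of -0.19 and 0.17, and over 5048 other named genes within the members' range of group means it was -0.002, with quartiles of -0.08 and 0.07. No member differed by 2-fold or more. A size of more than 0.2 on the log2 scale was found for 11 members, all with negative values, and a size under 0.1 for 36. The members were measured in the same libraries and are not independent of each other, so these counts are descriptions and carry no test.

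An unadjusted p under 0.05 was found for 4 of the 70 members (5.71%), close to the 5.58% of all genes. All 4 had negative log2 ratios, and 3.12% of all genes had such a p with a negative value. Not given in the sources used here is the tool behind the authors' test.

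These 4 were MRPL43, MRPS21, MRPL51 and MRPS12. MRPL43, a large subunit protein added in mitochondria (ENSGALG00000034352, GRCg6a chromosome 6, 24041933 to 24042609), had a higher group mean of 24.1 and a log2 ratio of -0.39, 1.31-fold lower at high density, in the authors' deposited table (p = 0.0318, adjusted p = 0.943). MRPS21, a small subunit protein with a bacterial counterpart (ENSGALG00000052471, chromosome 25, 3739529 to 3742749), had a higher group mean of 9.99 and a log2 ratio of -0.37 there (p = 0.0327, adjusted p = 0.954 in the authors' deposited table). Both lie far from the threshold after adjustment over the whole table. MRPL51, another large subunit protein added in mitochondria (ENSGALG00000014435, chromosome 1, 77585845 to 77587396), had a log2 ratio of -0.29 at a higher group mean of 14.5 in the authors' deposited table (p = 0.0415, adjusted p = 1.0). MRPS12, the counterpart of the bacterial S12 protein of the decoding centre (ENSGALG00000038667, chromosome 32, 107756 to 108482), had a log2 ratio of -0.34 at a higher group mean of 30.7 in the authors' deposited table (p = 0.047, adjusted p = 1.0).

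The standard errors printed here are implied by the p-values: each is the absolute log2 ratio over the normal deviate that its two-sided p corresponds to. They take the test to be a Wald test, on which the table is silent. They ran from 0.11 to 0.27 over the members, with a median of 0.14, and the 95% intervals made from them reached a median of 0.27 to either side. The intervals of 58 members lay wholly between -0.5 and 0.5. A change of the size of the median member, -0.09, is thus well inside the interval of a single gene and was not detectable gene by gene in these libraries.

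**Figure D1:**
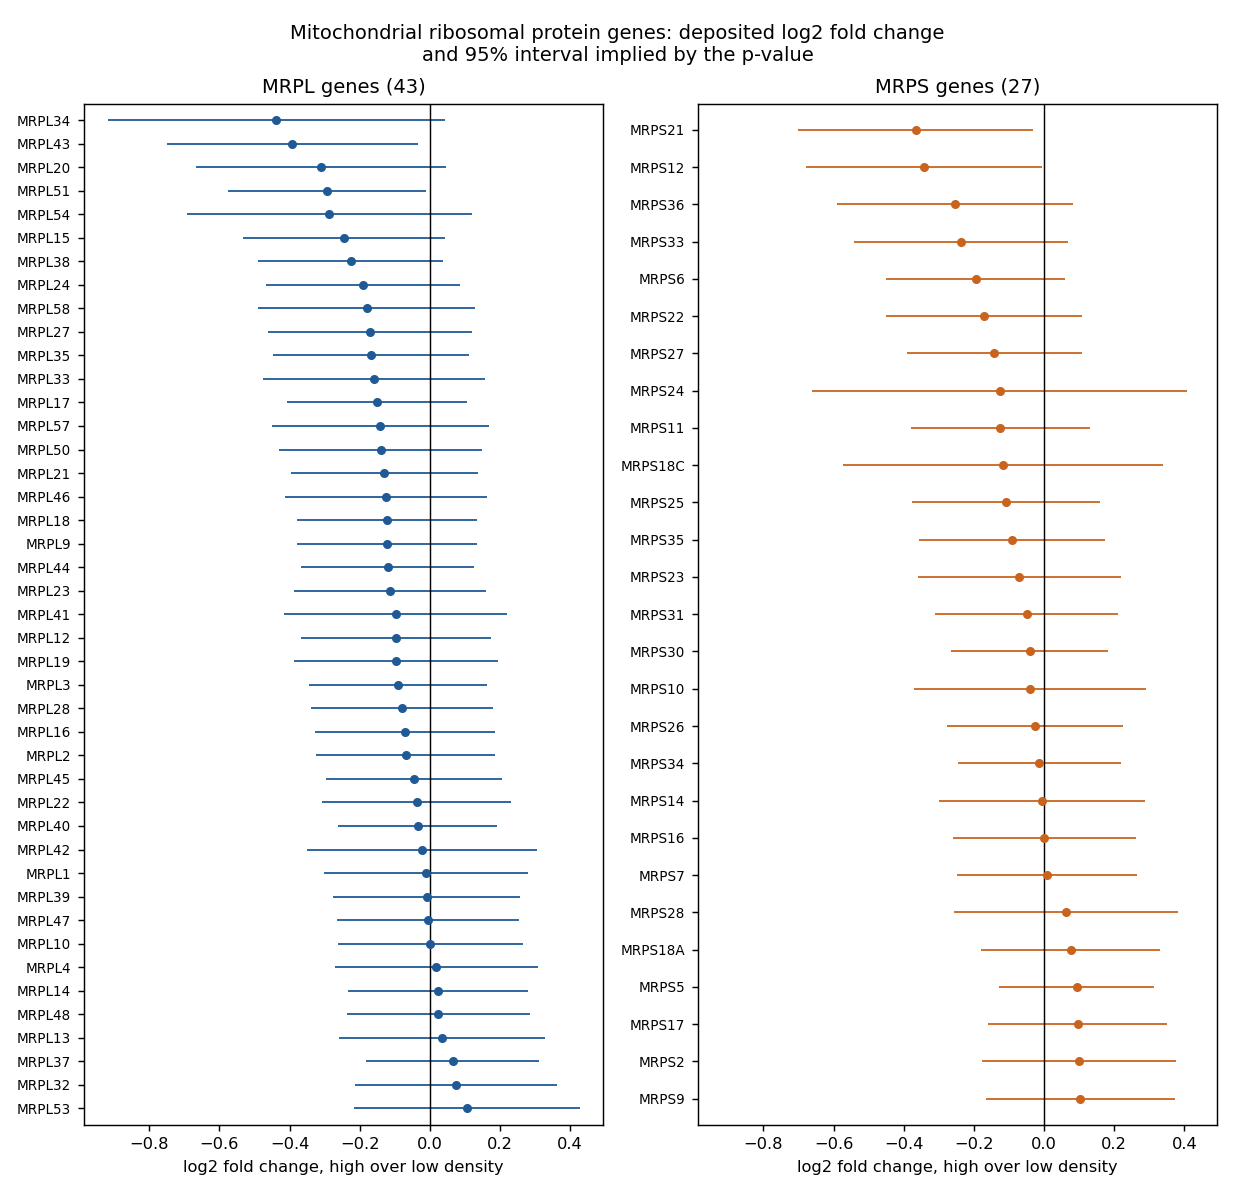
Each point is the log2 ratio (high over low density) of 1 gene in the authors' deposited table, with MRPL genes on the left and MRPS genes on the right, and lines are the 95% intervals implied by the p-values. Most points lie left of 0, and the intervals of 4 genes, MRPL43, MRPL51, MRPS21 and MRPS12, end below 0.

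Both subunits had more negative than positive values. Among the 43 MRPL genes, 35 were below 0 (81.4%), with a median of -0.10 and quartiles of -0.16 and -0.02. Among the 27 MRPS genes, 19 were below 0 (70.4%), with a median of -0.05 and quartiles of -0.13 and 0.004. The difference between the subunits was not tested. A pair of MRPS symbols names proteins that sit in the large subunit of the mammalian ribosome, MRPS18A (0.08) and MRPS30 (-0.04), and MRPS36 (-0.25) names a protein now known as a subunit of the 2-oxoglutarate dehydrogenase complex, all values being log2 ratios of the authors' deposited table. Placed this way, 36 of 45 large subunit genes (median -0.10) and 17 of 24 small subunit genes (median -0.06) were below 0.

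**Figure D2:**
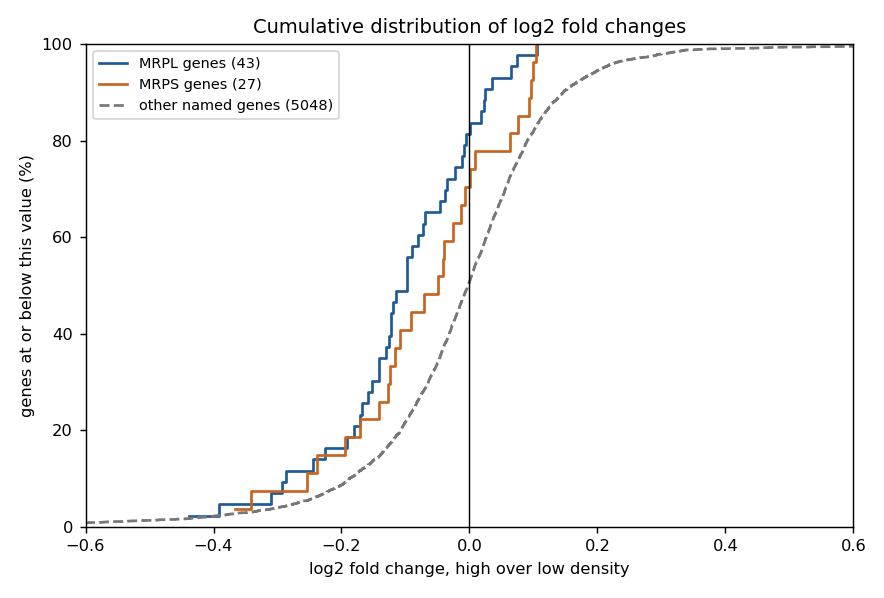
The vertical axis is the percent of genes at or below the log2 ratio (high over low density) on the horizontal axis, for the 43 MRPL genes, the 27 MRPS genes and 5048 other named genes with group means in the members' range. The MRPL and MRPS curves lie left of that of the other genes over the middle of the range, with medians of -0.10 and -0.05, against -0.002.

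Markers of other cell types were counted in the same way, and of these 1 passed the test. T and NK cell markers were lower in 12 of 12 cases (median log2 ratio -0.39, 1 called) as were 8 of 10 markers of stellate cells and fibroblasts (median -0.24, 0 called) and 6 of 8 of cholangiocytes (median -0.27, 0 called), while erythroid markers were higher in 8 of 9 (median 0.43, 0 called) and heterophil markers in 7 of 8 (median 0.74, 0 called). The called marker was GNLY, a cytolytic granule protein, with a log2 ratio of -0.58 (adjusted p = 0.0396), and of the T cell receptor chain CD247 the authors' deposited table gave -0.60 (adjusted p = 0.615). The smallest p-values of the other lists in the authors' deposited table belonged to POSTN (-0.40) and ACTA2 (-0.25), KRT7 (-0.40) and ONECUT1 (0.32), SLC4A1 (0.67) and HBBA (0.64), and AvBD1 (0.99) and CATHL2 (1.03), given as log2 ratios. The heterophil marker that was lower was LYZ, with a log2 ratio of -1.43, and the erythroid marker that was lower was GYPC, with -0.34. No marker with a match in these lists was listed at 0, and 11 symbols had no match. Summed levels per group cannot be given from this table, and the part of these cells in the values of the ribosomal protein genes was not tested. In bulk liver, fewer cells of a type and less RNA per cell cannot be told apart.

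The large subunit proteins with a bacterial counterpart include those around the catalytic centre, in the stalk that contacts translation factors and near the exit tunnel. The list of this kind held 30 symbols, of which 26 had a match. Of these 26 genes, 21 were below 0 (median -0.10), and none had an unadjusted p under 0.05. MRPL34 had the lowest log2 ratio of all members, -0.44, with the widest implied SE of the subunit, 0.25 (p = 0.0744 in the authors' deposited table), and within this group MRPL20 followed with -0.31 (implied SE 0.18, p = 0.0879). Around the catalytic centre and the core of the subunit, MRPL2 had a value of -0.07, MRPL3 one of -0.09, MRPL16 one of -0.07 and MRPL27 one of -0.17 in the authors' deposited table. In the stalk, MRPL12, which in mammals also binds the mitochondrial RNA polymerase, had a log2 ratio of -0.10, MRPL10, which anchors it, one of 0.001, and MRPL1, of the opposite stalk, one of -0.01 in the authors' deposited table. Near the exit tunnel, the values of the authors' deposited table were 0.02 for MRPL4, -0.04 for MRPL22, -0.11 for MRPL23, -0.19 for MRPL24 and -0.01 for MRPL47. The members with positive values in this group were MRPL32 (0.07), MRPL13 (0.03), MRPL14 (0.02), MRPL4 and MRPL10 in the authors' deposited table. Those not yet named had log2 ratios between -0.24 and -0.08 in the authors' deposited table, namely MRPL15 (-0.24), MRPL35 (-0.17), MRPL33 (-0.16), MRPL17 (-0.15), MRPL21 (-0.13), MRPL18 (-0.12), MRPL9 (-0.12), MRPL19 (-0.10) and MRPL28 (-0.08).

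MRPL9, MRPL12, MRPL2, MRPL17 and MRPS6 had the highest of the deposited means. These were 62.3 for MRPL9, 52.6 for MRPL12, 51.9 for MRPL2, 45.6 for MRPL17 and 45.5 for MRPS6 in the authors' deposited table, and their log2 ratios ran from -0.19 for MRPS6 to -0.07 for MRPL2. The lowest were those of MRPL53 (4.75), MRPL4 (4.85) and MRPL39 (6.26), whose log2 ratios were 0.10, 0.02 and -0.01 in the authors' deposited table. Over the 70 members, the log2 ratio and the higher group mean had a Spearman correlation of -0.15, given as a description.

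Large subunit proteins added in mitochondria cover the outer face of the subunit and its membrane side. Of 21 listed symbols of this kind, 19 had a match. Of these 19 genes, 15 were below 0 (median -0.10). Next to MRPL43 and MRPL51, the most negative were MRPL54, at -0.29 (implied SE 0.21), and MRPL38, at -0.23 (implied SE 0.13), in the authors' deposited table. MRPL45, which in mammals ties the ribosome to the inner membrane, had a log2 ratio of -0.05, MRPL44, which has a ribonuclease III-like fold, one of -0.12, and MRPL39, which resembles threonyl-tRNA synthetase, one of -0.01 in the authors' deposited table. MRPL58, a peptidyl-tRNA hydrolase built into the ribosome, had a value of -0.18 there. The highest values of the group were those of MRPL53 (0.10, implied SE 0.16), MRPS18A (0.08), MRPL37 (0.07) and MRPL48 (0.02) in the authors' deposited table. The remaining log2 ratios in the authors' deposited table were -0.14 for MRPL57, -0.14 for MRPL50, -0.13 for MRPL46, -0.10 for MRPL41, -0.04 for MRPL40, -0.04 for MRPS30 and -0.02 for MRPL42.

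Small subunit proteins with a bacterial counterpart include those at the decoding centre and at the channel of the messenger RNA. Genes of this group were split about evenly, with 8 of 15 below 0 (median -0.01), although MRPS21 and MRPS12 belong here. The list of this group held 17 symbols, of which only these 15 had a match. The highest values of the MRPS genes were also found in this group, at 0.10 for MRPS9 (implied SE 0.14), 0.10 for MRPS2 (implied SE 0.14) and 0.10 for MRPS17 (implied SE 0.13) in the authors' deposited table. MRPS5, at the channel where messenger RNA enters, had a log2 ratio of 0.09 (implied SE 0.11), MRPS28 one of 0.06 and MRPS7 one of 0.01 in the authors' deposited table. For MRPS6 the authors' deposited table gave -0.19 (implied SE 0.13, p = 0.134). MRPS24 (-0.13) had the widest implied SE of all members, 0.27, and MRPS18C (-0.12) one of 0.23 by the authors' deposited table. The last of the group were MRPS11 (-0.12), MRPS10 (-0.04), MRPS14 (-0.01) and MRPS16 (0.001) in the authors' deposited table.

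All 9 MRPS genes for small subunit proteins added in mitochondria were below 0, with values from -0.24 to -0.01 and a median of -0.09. None of these 9 had an unadjusted p under 0.05. Small subunit genes with other symbols are not counted among them, and 1 of those, PTCD3, was above 0 (0.02). MRPS33 had -0.24, MRPS22 had -0.17 and MRPS27, a pentatricopeptide repeat protein, had -0.14 in the authors' deposited table. MRPS25 (-0.11), MRPS35 (-0.09), MRPS23 (-0.07), MRPS31 (-0.05), MRPS26 (-0.03) and MRPS34 (-0.01) completed these 9 MRPS genes in the authors' deposited table. MRPS36, placed outside the ribosome, had the third lowest value of the MRPS genes, -0.25 (implied SE 0.17, p = 0.138 in the authors' deposited table).

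Proteins of this ribosome with other symbols were looked up separately. The 4 found, all of the small subunit, had log2 ratios between -0.18 and 0.02. DAP3, a GTP-binding protein, had a log2 ratio of -0.05, CHCHD1 one of -0.18, AURKAIP1 one of -0.16 and PTCD3 one of 0.02 in the authors' deposited table. With these added and MRPS36 left out, 76.7% of 73 genes were below 0.

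The members with short gene models had the more negative values. Span was counted from start to end of the deposited region, introns included, and ran from 677 bases for MRPL43 to 77551 for MRPS28. Of the 14 members spanning up to 2000 bases, 12 were below 0 (median -0.16), and of the 24 spanning more and up to 4000 bases, 20 were (median -0.10). Of the 18 members between 4000 and 10000 bases, 14 were below 0 (median -0.04), and of the 14 longer ones 8 were (median -0.03). The spans of MRPS12 (727 bases) and MRPL50 (779 bases) were the shortest after that of MRPL43, with log2 ratios of -0.34 and -0.14 in the authors' deposited table. At the other end, MRPS28 had a log2 ratio of 0.06, MRPS6 (47906 bases) one of -0.19 and MRPS27 (46493 bases) one of -0.14 by the authors' deposited table. The long members thus include negative values of the size seen in short ones.

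Over the 70 members, the log2 ratio and the span had a Spearman correlation of 0.32 (Pearson's r = 0.36 on log10 span). Within the MRPL genes Spearman's rho was 0.44 (n = 43) and within the MRPS genes 0.11 (n = 27). Pearson's r on log10 span lay closer together, at 0.41 and 0.27 in the same order. All genes share the same libraries and the same test, so these are descriptions and have no p. The cytosolic ribosomal protein genes had a larger rho than the members, 0.51 (n = 70), but nearly the same Pearson's r on log10 span, 0.37. Other named genes within the members' range of means had a rho of 0.10 (n = 5048). Those of up to 2000 bases were also mostly below 0, 160 of 211 (75.8%, median -0.15). In the class above 2000 and up to 4000 bases the share below 0 was 83.3% of members and 63.5% of 488 other genes (medians -0.10 and -0.04), and between 4000 and 10000 bases 77.8% of members and 51.0% of 1256 other genes (medians -0.04 and -0.003). Among the longest, it was 57.1% of members and 46.8% of 3093 other genes (medians -0.03 and 0.007). Members had a median span of 3523.5 bases and the other genes one of 14372 bases. The part of span in the members' values was not tested, and the bounds of the classes were set after the values were seen.

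**Figure D3:**
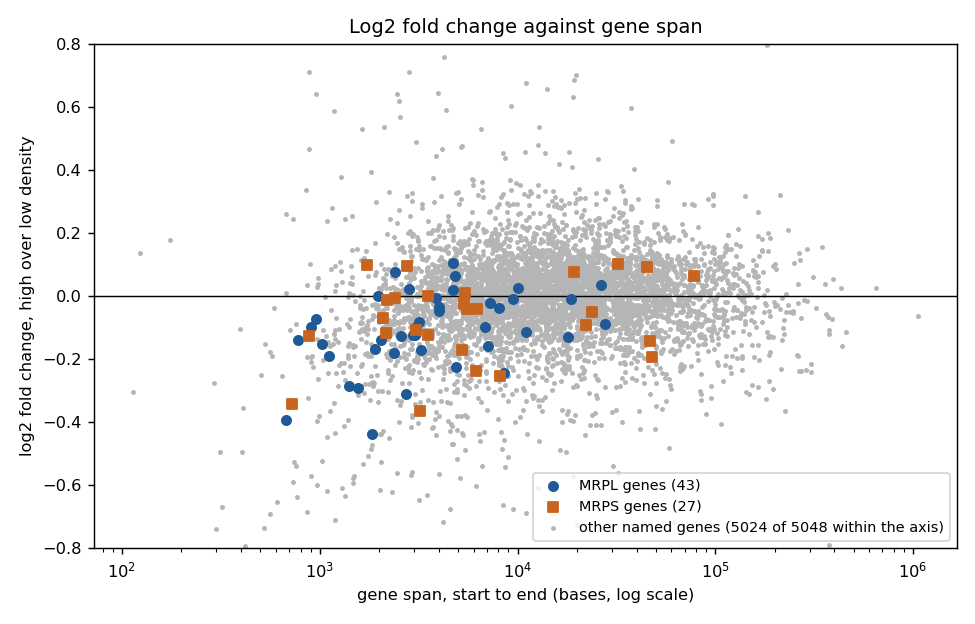
The log2 ratio (high over low density) is plotted against gene span in bases on a log axis, for 43 MRPL genes (circles), 27 MRPS genes (squares) and other named genes of the same range of means (grey). The 5 members below -0.3 (MRPL34, MRPL43, MRPS21, MRPS12 and MRPL20) all span less than 4000 bases, where the other genes also lie mostly below 0.

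The members lie on 24 chromosomes, and in each size class of chromosome most were below 0. On the large chromosomes, taken as 1 to 5 and Z, 27 of 36 members were below 0 (median -0.08). On chromosomes 6 to 10, 7 of 8 were (median -0.12), and on the smaller ones 20 of 26 were (median -0.10). Of the other named genes, 49.7%, 48.6% and 52.7% were below 0 in these classes, the last of which took every remaining chromosome label whatever its size. The median spans of the members were 7159.5, 3264 and 2894 bases in the same order, and chromosome class and span were not separated.

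Many members start next to another gene on the opposite strand. A head-to-head neighbour, a named gene with a mean of at least 0.5 that starts upstream on the other strand with at most 1000 bases between the gene models, was found for 17 of 70 members (24.3%), beside 589 of 5048 other named genes (11.7%). MRPL46 and MRPS11, a large and a small subunit gene, are neighbours of this kind, with 19 bases between them on chromosome 10 (MRPS11 from 13612327 to 13615857, MRPL46 from 13615877 to 13618457). MRPL46 had a log2 ratio of -0.13 and MRPS11 one of -0.12 in the authors' deposited table, so this pair had nearly the same value. The gaps of all pairs ran from 8 to 648 bases.

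In the other 15 pairs the neighbour is no member. There the member was below 0 in 12 pairs and the neighbour in 6, with medians of -0.12 and 0.04, and the member had the lower value in 11. No neighbour had an unadjusted p under 0.05. The neighbours were not matched to the members in mean or span, and their higher group means ran from 0.719 (SKA3) to 60.9 (NDUFB5). MRPL43 had a log2 ratio of -0.39 and TWNK, the helicase of mitochondrial DNA, one of -0.16, as listed in the authors' deposited table. MRPL51 had -0.29 and the condensin subunit NCAPD2 had 0.05 there. MRPL35 had -0.17 and IMMT, a protein of mitochondrial cristae, had 0.04, and MRPS27 had -0.14 and PTCD2 had 0.28 (p = 0.108) in the authors' deposited table. MRPL47 had -0.01 and NDUFB5, of respiratory complex I, had -0.07, while MRPL18 had -0.12 and TCP1, of the cytosolic chaperonin, had -0.09 in the authors' deposited table. The remaining neighbours were EME1, IGHMBP2, HELQ, PNPLA7, SKA3, GLYR1, GGA3, PSMA2 and C9orf116.

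**Figure D4:**
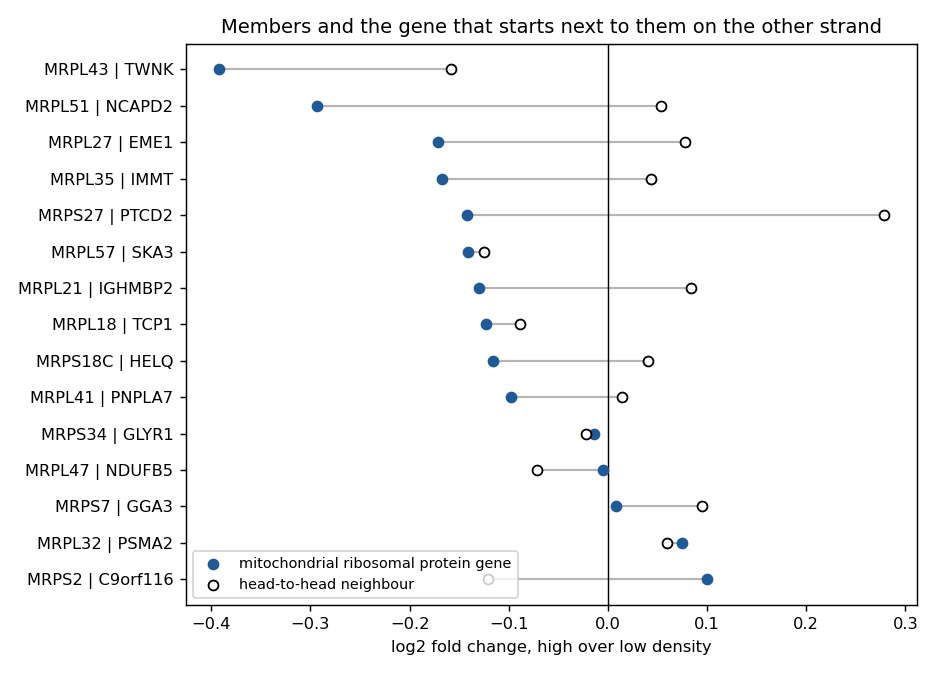
Each row is 1 pair, with the log2 ratio (high over low density) of the mitochondrial ribosomal protein gene as a filled circle and that of its head-to-head neighbour as an open circle. The filled circle lies left of the open one in 11 of 15 pairs, and the distance is widest for MRPS27 and PTCD2.

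Overlapping gene models limit what can be said of 20 members, 7 of which overlap a model with a result on their own strand. Not given in the sources used here is whether the counting used strand. MRPL20 overlaps CCNL2 on the same strand, and CCNL2 had a log2 ratio of 0.15, opposite in sign to that of MRPL20, in the authors' deposited table. MRPS28 overlaps TPD52 (-0.16), MRPS25 overlaps NR2C2 (-0.29), MRPS17 overlaps NIPSNAP2 (-0.02), MRPS36 overlaps CENPH (-0.08) and MRPL54 overlaps PCASP2 (0.03), all on the same strand and with log2 ratios from the authors' deposited table. MRPL10 overlaps an unnamed model. MRPL4 overlaps the complement gene C3 on the other strand, and the higher group means were 4.85 for MRPL4 and 1021 for C3 in the authors' deposited table, and the part of C3 reads in the MRPL4 value was not tested. COA4, a cytochrome oxidase assembly factor, overlaps MRPL48 on the other strand and had a log2 ratio of -1.22 in the authors' deposited table, with a higher group mean of 1.33 (p = 0.0499, adjusted p = 1.0). Without the 20 members, 82.0% of the other 50 were below 0 (median -0.10).

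Other genes of mitochondrial translation were given by list. Of the 11 genes with a value in the list of translation factors and related genes, 4 were below 0 and 7 above (median 0.005). None of these 11 was called or had an unadjusted p under 0.05. The other 7 of the 18 listed symbols had no match. Among them, MTRFR and MTRES1 appear under other symbols, C15H12ORF65 (log2 ratio -0.21) and C3H6ORF203 (-0.03). Both are negative and are left out of these counts, so the split depends on symbol matching. GFM1, an elongation factor, had a log2 ratio of 0.10 and GFM2, which acts in ribosome recycling, one of -0.10 in the authors' deposited table. Of 29 genes with a value for assembly of the mitochondrial ribosome, 15 were below 0 and 14 above (median -0.004, 0 called), and 5 listed symbols had no match. Only C1QBP had an unadjusted p under 0.05, with a log2 ratio of -0.25 in the authors' deposited table (p = 0.0449, adjusted p = 1.0), and YBEY, an endoribonuclease, followed with -0.23 (p = 0.0668). That list also holds METTL5 and BOP1, which act on the cytosolic ribosome. Of 15 mitochondrial tRNA synthetase genes and related amidotransferase genes with a value, 10 were below 0 and 5 above (median -0.05). None of the 15 was called or had an unadjusted p under 0.05, and 5 listed symbols had no match. LARS2, which charges leucine tRNA, had a log2 ratio of -0.25 (p = 0.119) in the authors' deposited table.

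Cytosolic ribosomal protein genes, 70 by symbol, were below 0 in 68 cases (median -0.19, 0 called). An unadjusted p under 0.05 was found for 15 of them (21.4%), beside 5.58% of all genes with a result. The 13 named genes of the mitochondrial genome were below 0 in 10 cases (median -0.04, quartiles -0.54 and -0.02, 0 called). Unadjusted p-values under 0.05 were seen for 4 of these 13 (30.8%), each with a negative log2 ratio. The difference between these groups and the mitochondrial ribosomal protein genes was not tested.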

How the data were processed

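The file is the authors' deposited table of high against low density, on build GRCg6a per the submitters' processing notes. Not given in the sources used here are the aligner, the counting, the normalization and the test. Per the file headers the authors' values are a log2 fold change, the same as a signed fold, p-values with 2 adjustments, and the higher group mean, a score on an unnamed scale (deposited sum 407974). Rows with every value at 0 (3443) were treated as having no result. For genes with a result, the deposited adjusted p equals a Benjamini-Hochberg adjustment over all 23613 rows (largest difference when recomputed 2.4e-05). In that recomputation the 3443 rows at 0 were ranked last, in place of their deposited p of 0. A call is a deposited adjusted p under 0.05.

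The planned count and normalized-value tests could not be run, since no column holds values per library, so the authors' comparison was used as planned for that case, with no covariates. The submitters' labels state pools of 4 birds per library, so the replicates behind the p-values are pools and not single birds. How the test estimated the spread between pools is not given. Medians, counts, implied standard errors and correlations were computed with Python 3.11.15, pandas 2.3.3 and SciPy 1.17.1. The Benjamini-Hochberg adjustment, the step from p-value to implied SE and a rank correlation were tried on simulated data. The simulated p-values were made with the same normal formula, so this could not test whether the authors used a Wald test. Named in full were members with an unadjusted p under 0.05, the 3 highest and lowest log2 fold changes of each subunit, the 5 highest and 3 lowest means, and the 3 shortest and longest spans, 23 genes in all. Members and lists were chosen with earlier results of these data known. Symbols of kinases and of RPS19BP1 were dropped from the cytosolic ribosomal list by name. The rule for head-to-head neighbours was set after the values were seen. Of the members, 68 of 70 matched a symbol of the reference gene table (GRCg7b), from which only symbols and, in 1 alternative, gene lengths were used. MRPL30, MRPL36, MRPL49, MRPL55 and MRPS15 of that table have no row of that name in the authors' deposited table and so are not analysed here.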

Additional observations from a re-analysis of the deposited data

How the results depend on the processing

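Of 23 alternatives, 22 left the results as they were: the count of 0 called members, the share below 0 (76.7% to 82.0%), the median of all members (-0.10 to -0.09), those of the subunits, and the correlation with span (0.32 to 0.36). Some of these could not differ, since the filter at a group mean of at least 1 removed no member (lowest mean 4.75). The count of called members was 0 at an adjusted p under 0.01 and after the Bonferroni adjustment. Both are stricter than the main limit of 0.05, which called none, so they could only give 0. After adjustment over the 20170 genes with a result the count was also 0 (smallest adjusted p of a member 0.805). It was 4 at an unadjusted p under 0.05. Leaving out members with overlaps on either strand, and gene lengths of another build in place of span, were added after seeing the data. No paired analysis was possible because the deposited table holds no values per library, and for the same reason no library could be left out in turn. Protein length in place of gene span was not run. Depth per library is unknown, so its limit on each gene cannot be given.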

Other observations

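Genes that act on mitochondrial DNA and its transcripts were also looked at. Of 15 with a value, 8 were lower and 7 higher at high density (median log2 ratio, high over low density, -0.01, 0 called). SLIRP, which in mammals stabilises mitochondrial messenger RNA together with LRPPRC, had a log2 ratio of -0.34 in the authors' deposited table (p = 0.0249, adjusted p = 0.881), while LRPPRC had one of -0.04. TRMT10C, of the mitochondrial ribonuclease P, had a value of 0.19 (p = 0.16) and TFAM, which packages mitochondrial DNA, one of -0.10 in the authors' deposited table.

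Among 12 regulators of nuclear genes for mitochondrial proteins, 5 were lower and 7 higher (median 0.02, 0 called). The coactivator PPARGC1A had a log2 ratio of -0.77 (implied SE 0.26, p = 0.00337, adjusted p = 0.399) and MYC one of -0.41 (implied SE 0.18, p = 0.0194, adjusted p = 0.805) in the authors' deposited table. NRF1 (0.15), GABPA (0.03) and YY1 (0.001), factors known to bind promoters of such genes in mammals, had p-values of 0.412, 0.802 and 0.995 there.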
